A study of Mus musculus with 2 samples.

Results

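The genes of the cytosolic ribosomal proteins, the proteins of the ribosomes that work outside the organelles, were followed in single-cell RNA-sequencing of mouse embryonic stem cells. Members were chosen by symbol: every gene column whose name began with Rps or Rpl and a digit, with Rplp0 to Rplp2 and Rpsa, leaving out the Rps6k kinases and columns named as pseudogenes. The rule found 87 of 38458 gene columns: 46 genes of the canonical large subunit, 31 of the canonical small subunit and 10 columns that are copies of a member or carry a similar name. Among those 10, Rps19bp1 encodes a protein that binds a ribosomal protein and is not one itself.

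All cells were of DKO741, a line without Terc (the RNA component of telomerase) made by targeting both alleles in E14 embryonic stem cells, and the labels name neither a drug nor another genotype. The groups were PD100, labelled 100 passage and harvested before the cells kept their telomeres without telomerase, and PD800, labelled 800 passage and harvested after they had turned to alternative lengthening of telomeres (ALT). Each group had 1 library, so passage, ALT, library and run of the droplet device cannot be told apart, and neither a test nor a replicate check was possible. The line is 1 clone, and feeder fibroblasts were used for maintenance but not in the cultures that were sequenced.

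Each library was a table of UMIs, the molecule tags of the reads, per cell and gene. With at least 1000 UMIs and at most 20% mitochondrial UMIs per barcode, 814 cells of PD100 and 900 of PD800 were kept, from 1291 and 1666 barcodes. They held 1826233 and 2580963 UMIs, with medians of 2151 and 2701.5 UMIs per cell. All 10 embryonic stem cell markers were found in both libraries. The 8 feeder fibroblast markers held 27 UMIs in all in PD100 and 35 in PD800. Of these 8, 6 had UMIs in PD100, with Col1a1 and Lum at 0, and 7 in PD800, with Dcn at 0. The 14 markers of extraembryonic endoderm summed to 1108 CPM (UMIs per 1000000 of the library) in PD100 and 149 CPM in PD800, and the share of mitochondrial UMIs was 1.25% in PD100 and 4.63% in PD800. Libraries shared 21 barcode names, 8 of them among cells.

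A ribosome is built of a large and a small subunit, each an RNA scaffold covered by proteins that are, with the exception of the acidic stalk proteins, present in a single copy. Cells therefore make these proteins in matched amounts, and excess copies are degraded. Proliferating cells, embryonic stem cells among them, devote much of their mRNA to them. Most of the mRNAs begin with a C followed by an unbroken run of pyrimidines, the 5′ TOP, through which their translation follows growth signals of the mTOR pathway.

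The run of C and T at the start of the gene is the letter pattern that marks the class, and it was searched in the RefSeq promoter windows (GRCm38.p6, 250 bases before to 50 after the annotated start). A run of at least 6 letters C or T on the coding strand that overlapped the 10 bases on either side of a start was found in 39 of 66 members with an entry (59.1%) and in 32.7% of 27025 genes. Windows of 45 bases, 30 before to 15 from the start, are shown with the run in capitals. They are those of 3 members that were lower in PD800 and 4 that were higher, all with a run. Rplp0 and Rpl10, which were lower, and Rpl36a, which was higher, had no such run. In Rpl4 and Rps15a the run ends before the annotated start, so that it lies outside an mRNA that begins there.
Rpl15 (chr14:18270972-18271016, minus strand): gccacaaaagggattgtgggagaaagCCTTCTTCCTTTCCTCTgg
Rpl4 (chr9:64173357-64173401, plus strand): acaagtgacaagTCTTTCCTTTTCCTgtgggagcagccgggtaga
Rps6 (chr4:86857353-86857397, minus strand): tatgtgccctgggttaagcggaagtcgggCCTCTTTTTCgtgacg
Rplp2 (chr7:141447621-141447665, plus strand): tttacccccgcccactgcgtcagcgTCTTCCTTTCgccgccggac
Rpl38 (chr11:114668550-114668594, plus strand): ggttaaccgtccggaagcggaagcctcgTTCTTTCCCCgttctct
Rps15a (chr7:118116133-118116177, minus strand): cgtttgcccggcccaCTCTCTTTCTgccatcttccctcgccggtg
Rps21 (chr2:180257349-180257393, plus strand): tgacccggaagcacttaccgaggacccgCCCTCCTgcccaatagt

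Other letters were counted in the same windows on both strands. CCGGAAG was in 26 of 66 members (39.4%) against 9.93% of all genes, and also in 37.7% of 69 mitochondrial ribosomal protein genes. AAGATGGC was in 9.09% of members against 3.19%, CCCGCCC in 47.0% against 27.9%, and TATAAA in 10.6% against 15.7%. A match describes these letters only. Among canonical members with an entry and enough UMIs, the 34 with a C/T run had a median log2 ratio of CPM, PD800 over PD100, of 0.16 (95% order-statistic interval -0.25 to 0.38) and the 22 without one of -0.05 (-0.24 to 0.44), so that the intervals overlapped.

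The members together took nearly the same part of the mRNA in both libraries. They held 272028 of the UMIs of PD100, or 14.9% (95% exact binomial interval 14.8 to 14.9%), and 392102 of those of PD800, or 15.2% (15.1 to 15.2%). The log2 ratio of the shares was 0.028 (0.021 to 0.035), a difference beyond counting error that rested on a single gene: without Rpl36a it was -0.012 (-0.019 to -0.0049). Intervals here and below cover counting error and say nothing about the spread between cultures.

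Cell by cell the medians were alike, while the direction of the difference varied with depth. With each cell thinned to 1000 UMIs, the members' share had a median of 14.8% in PD100 and 15.1% in PD800, with 5th to 95th percentiles of 11.8 to 18.7% and 12.3 to 18.4%. Without thinning the medians were 14.9% and 15.1%. The SD over cells was 2.09 and 1.963 percentage points, where sampling 1000 UMIs would alone give about 1.13 in both. In PD100 the share was lower in the 114 cells with 3 or more endoderm marker UMIs, at 13.9%, than in the other 700, at 15.1%. In PD800 the 29 such cells were at 15.5% and the other 871 at 15.2%. Cells with and without these markers were not matched for depth. With such cells left out of both libraries the log2 ratio of the summed shares was 0.0081 in place of 0.028.

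Under the even sum, single members differed from each other. Of 87 members, 85 reached 50 UMIs over both libraries and are called tested genes, as are 6984 of all columns. Their log2 ratios ran from -1.09 for Rpl15 to 2.72 for Rpl36a, with an SD of 0.76 over genes, less than the 0.99 over all tested genes. The counting interval lay wholly above 0 in 47 and wholly below 0 in 34 of the 85, against 19.2% and 45% of all tested genes. The median was 0.16 (-0.11 to 0.34).

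All tested genes had a median log2 ratio of -0.34, so the members' median was 0.50 relative to them. That distance depends on the genes set beside the members: it was 0.32 with a minimum of 500 UMIs per gene, and the 742 other genes with at least 1000 UMIs had a median of -0.06. At least 1.5-fold lower in PD800 were 7 members (8.24%), against 36.6% of all tested genes, and at least 1.5-fold higher were 22 (25.9%), against 15.2%. At the 2-fold rule the counts were 3 lower (3.53%, against 16.9%) and 10 higher (11.8%, against 9.22%). Measured from the median of all tested genes, 5 members were at least 1.5-fold lower (of all genes, 20%) and 37 at least 1.5-fold higher (24.5%). At the 1.5-fold rule members were thus rarer than tested genes in general on the lower side and more frequent on the higher side, on either scale. At the 2-fold rule their share on the higher side was near that of all tested genes. Such shares were not taken for other genes of like UMIs.

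**Figure D1:**
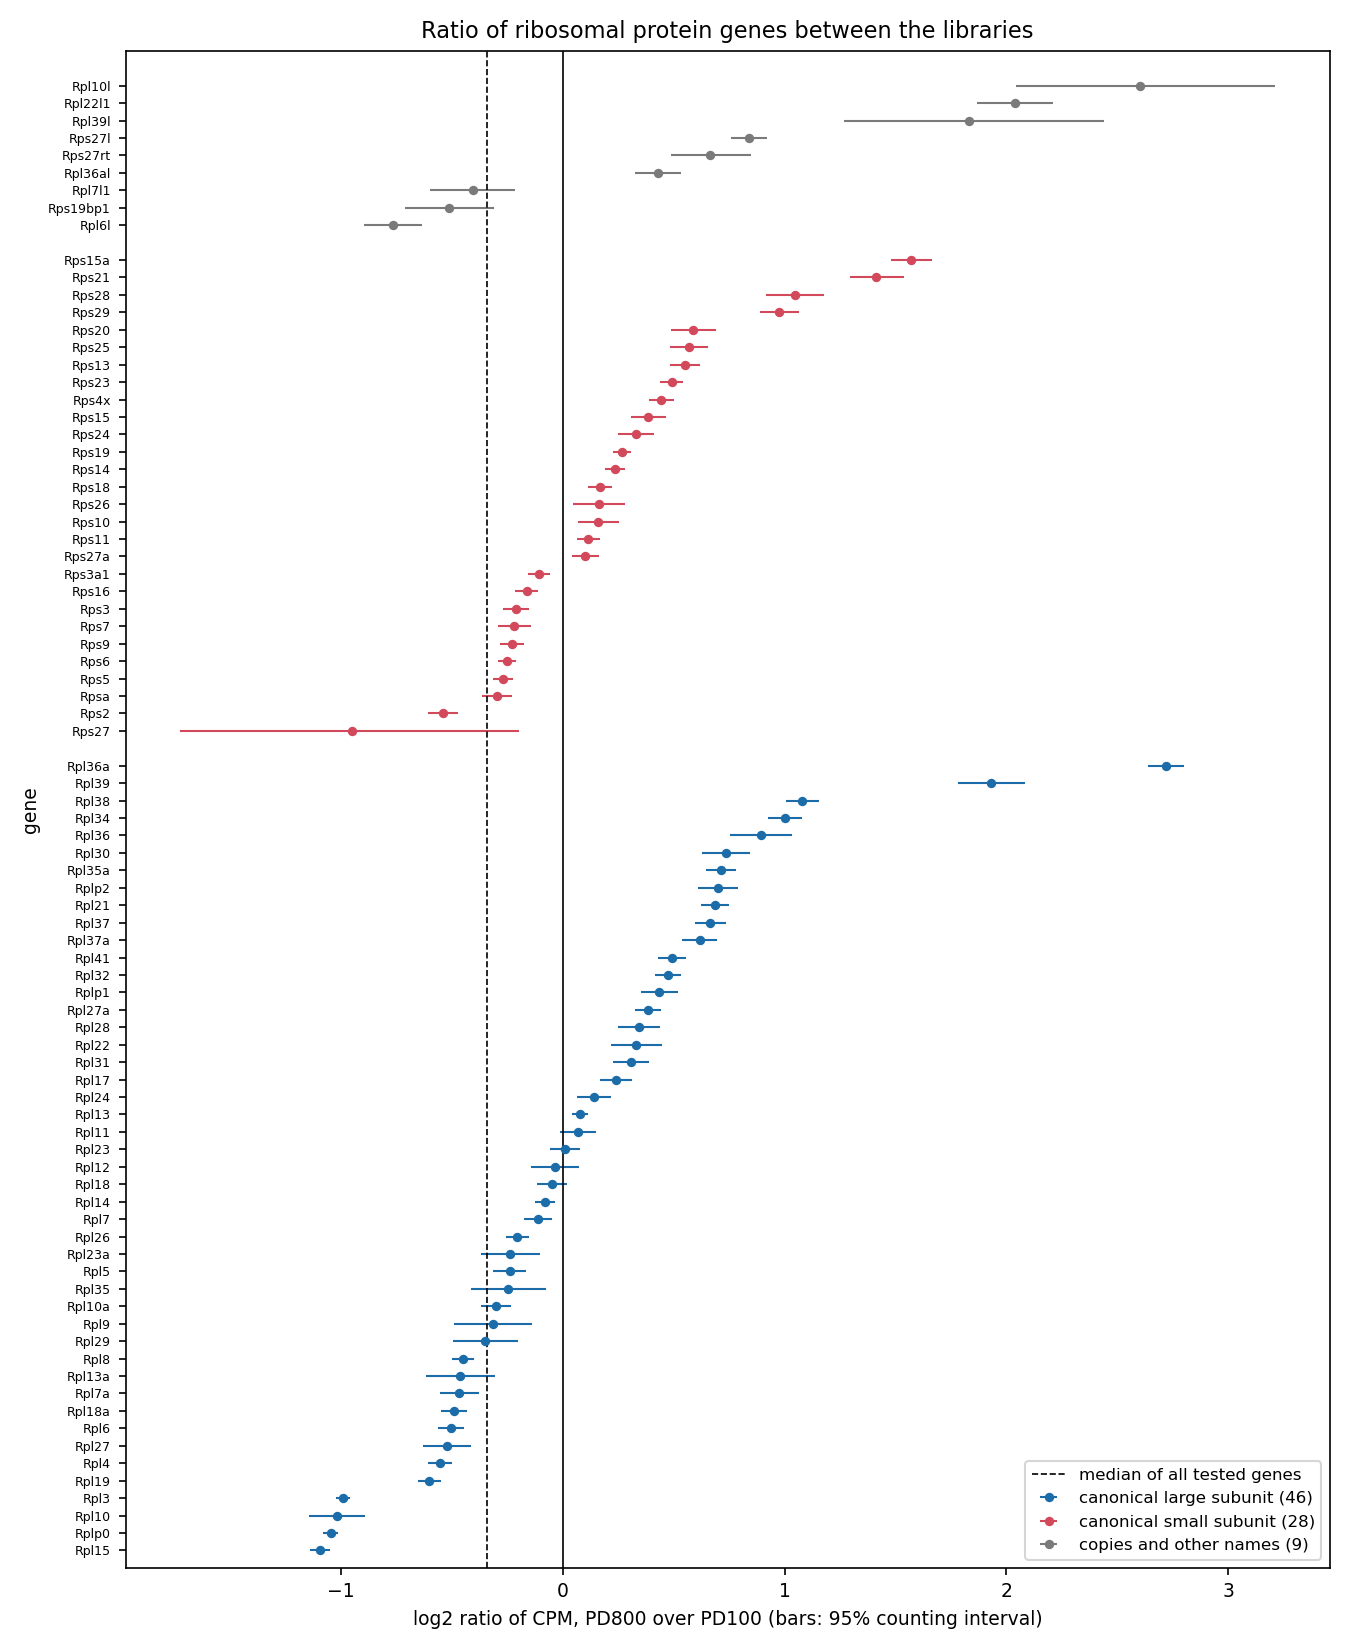
Log2 ratio of CPM, PD800 over PD100 (x axis), of 83 of the 85 tested members, 1 row per gene, sorted within the large subunit (blue), the small subunit (red) and copies and other names (grey). Points are the ratios of 1 library each, bars 95% counting intervals, and the dashed line the median of all tested genes at -0.34; the rows run from -1.09 (Rpl15) to 2.72 (Rpl36a).

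The lowest ratios belonged to abundant large subunit genes. Rplp0, the base of the stalk that recruits translation factors, had 17671 UMIs in PD100 (9676 CPM, exact Poisson interval 9534 to 9820) and 12073 in PD800 (4678 CPM, 4595 to 4762), which is a ratio of -1.05 on the log2 scale (-1.08 to -1.02). Rpl3, a core protein near the peptidyl transferase centre, had 17578 and 12484 UMIs, or 9625 and 4837 CPM, which came to -0.99 on the log2 scale (-1.03 to -0.96). These held the first and the second rank of all genes by UMIs in PD100 and rank 16 and 14 in PD800.

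Rpl15, another core protein of the large subunit, had 9909 and 6556 UMIs, or 5426 and 2540 CPM, with a log2 ratio of -1.09 (-1.14 to -1.05). Rpl10, which is fitted to the large subunit late in its maturation, had 1266 and 882 UMIs, or 693 and 342 CPM, a log2 ratio of -1.02 (-1.15 to -0.90). PD100 was higher in each of these 4, and Rpl3 lay just inside 2-fold. Rplp0 (chr5:115559467-115563727, GRCm38, plus strand) and Rpl15 (chr14:18267823-18271391, minus strand) shared none of the 50-base words at their 3′ end with another gene. Every such word of Rpl10 (chrX:74270812-74273135, plus strand) and 76.5% of those of Rpl3 (chr15:80077791-80091868, minus strand) also occurred elsewhere, mostly in pseudogenes, so that reads could have been split.

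Other members with many UMIs stayed close to even. Rpl13 had 5508 CPM in PD100 and 5812 in PD800 (log2 0.08, 0.04 to 0.11), and Rps19, which is mutated in Diamond-Blackfan anaemia, 4557 and 5482 CPM (0.27, 0.23 to 0.31). Rps6, the classic substrate of the S6 kinases, had 4723 and 3962 CPM (-0.25, -0.29 to -0.21). Rps14, a protein of the small subunit, had 3335 and 3921 CPM (0.23, 0.19 to 0.28). PD800 was higher in Rpl13, Rps19 and Rps14 and PD100 in Rps6, all by less than 1.5-fold, and measured from the median of all tested genes Rps6 was at 0.09. With Rplp0, Rpl3 and Rpl15 they were among the 8 members with the most UMIs.

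Rpl36a stood apart on the other side. This protein of the large subunit's tRNA exit site had 1369 UMIs in PD100 (750 CPM, 710 to 790) and 12753 in PD800 (4941 CPM, 4856 to 5028), a 6.59-fold higher value with a log2 ratio of 2.72 (2.64 to 2.80). Its rank among all genes by UMIs was 200 in PD100 and 13 in PD800, and its part of the members' UMIs 0.503% and 3.25%. With cells thinned to 1000 UMIs, it had a UMI in 46.8% of PD100 cells and 98.4% of PD800 cells (72.4% and 99.8% without thinning), and since no cell lacks ribosomes no background share could be set beside these. In the barcodes that the filter had left out, its UMIs were 204 and 2278, a log2 ratio of 2.59. All of the 3′ words of Rpl36a (chrX:134585654-134588062, plus strand) also occurred in other genes, 92.4% of them in 1 pseudogene, and its column may hold their reads. Its near copy Rpl36al, which encodes an almost identical protein from another locus (chr12:69182731-69184083, minus strand), had 639 and 859 CPM (0.43, 0.32 to 0.53), less than 1.5-fold.

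Short proteins followed. Rpl39, a very small protein of the exit tunnel, had 428 and 2305 UMIs, or 234 and 893 CPM (log2 1.93, 1.78 to 2.08). Rps15a, a small subunit protein, had 1144 and 4804 UMIs, or 626 and 1861 CPM (1.57, 1.48 to 1.67). The 3′ end of its chosen transcript of 5179 nt had no word in common with another gene. Shorter transcripts of the gene were not searched. PD800 was higher in both Rpl39 and Rps15a, by more than 2-fold. Chosen after their values were seen, Rps21 (381 and 1015 CPM), Rpl38 (1091 and 2304 CPM), Rps28 (364 and 750 CPM) and Rpl34 (982 and 1967 CPM) were also at or past 2-fold in the same direction. Canonical members between 1.5-fold and 2-fold higher included Rps29 (log2 0.98), Rpl36 (0.89), Rpl30 (0.73), Rpl35a (0.71), Rplp2 (0.70), Rpl21 (0.68), Rpl37 (0.66), Rpl37a (0.62) and Rps20 (0.59), all of them proteins of under 500 nt of coding sequence. Below them the nearest was Rps25 (0.57), just under 1.5-fold. On the other side Rpl19 (-0.60) was just past 1.5-fold, and Rpl4 (-0.55) and Rps2 (-0.54) were just short of it. Counting intervals that held 0 were those of Rpl11 (0.07), Rpl23 (0.01), Rpl12 (-0.04) and Rpl18 (-0.05).

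**Figure D2:**
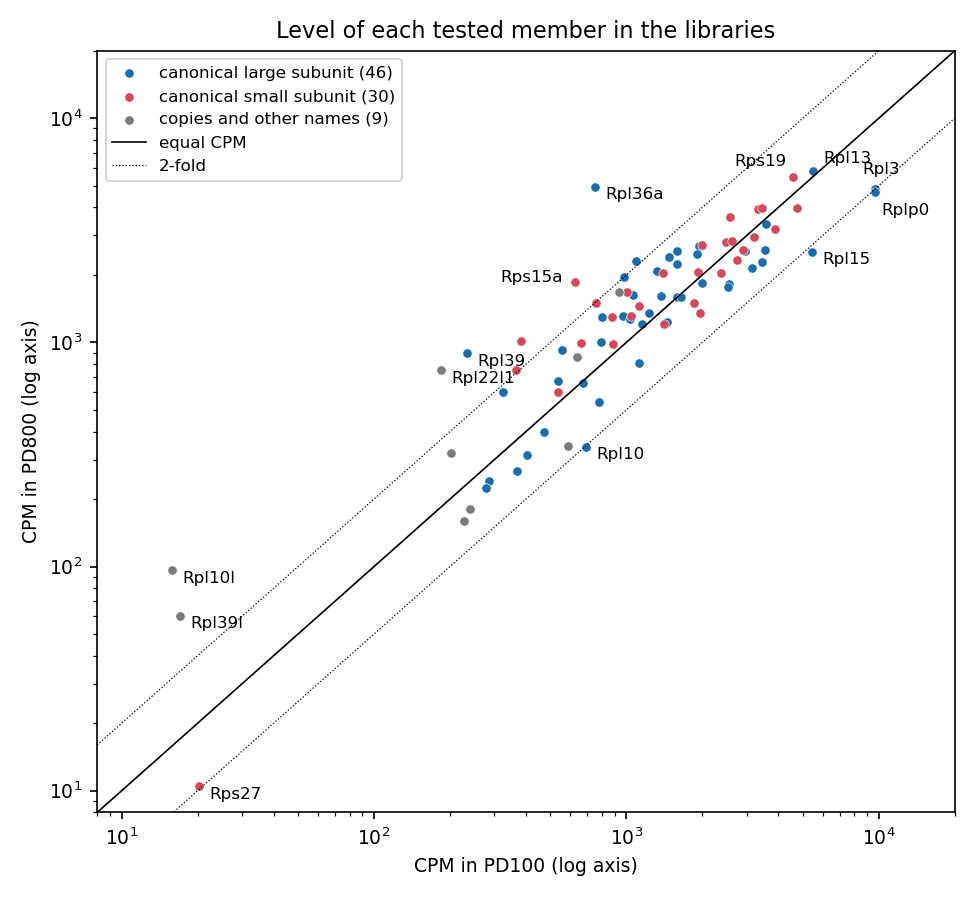
CPM of each tested member in PD100 (x, log axis) and PD800 (y, log axis), 1 point per gene, coloured by subunit. The solid line marks equal CPM and the dotted lines 2-fold; Rpl36a lies at 750 and 4941 CPM, far from the others of its level, while Rplp0 and Rpl15 lie just past the lower 2-fold line and Rpl3 just inside it.

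Some copies of members were among the highest ratios. Rpl10l, an intronless copy of Rpl10 known from the testis, had 29 UMIs in PD100 (15.9 CPM, 10.6 to 22.8) and 249 in PD800 (96.5 CPM, 84.9 to 109), with a log2 ratio of 2.60 (2.04 to 3.21), while that of Rpl10 itself was -1.02. Rpl22l1, a copy of Rpl22, had 335 and 1942 UMIs, or 183 and 752 CPM (2.04, 1.87 to 2.21), where Rpl22 had 533 and 671 CPM (0.33, 0.22 to 0.45). Rpl39l, a copy of Rpl39 also known from the testis, had 31 and 156 UMIs, or 17.0 and 60.4 CPM (1.83, 1.27 to 2.44).

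Rpl10l (chr12:66283379-66284401, minus strand) and Rpl39l (chr16:10170226-10174911, plus strand) shared no 3′ word with another gene, and 63.3% of the words of Rpl22l1 (chr3:28805436-28807424, plus strand) did. The interval of the copy lay above that of the parent gene for Rpl10l and Rpl22l1, and the intervals of Rpl39l and Rpl39 overlapped. Rps27l, a copy of Rps27 known as a target of p53, had 937 and 1677 CPM (0.84, 0.76 to 0.92), and Rps27rt, an intronless copy, 203 and 321 CPM (0.66, 0.49 to 0.85). Of the 9 tested columns of copies and other names, 5 were at least 1.5-fold higher in PD800 (55.6%, against 15.2% of all tested genes). At least 1.5-fold lower was 1 (11.1%, against 36.6%).

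The remaining copies were lower or near empty. Rpl6l had 587 and 345 CPM (-0.77, -0.90 to -0.64), Rpl7l1 239 and 181 CPM (-0.41, -0.60 to -0.21) and Rps19bp1 227 and 159 CPM (-0.51, -0.71 to -0.31). Of these only Rpl6l was past 1.5-fold. Rpl3l, a copy of Rpl3 of heart and skeletal muscle, had 8 and 2 UMIs and was not tested.

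Rps12 had 0 UMIs in both libraries, which allows up to 1.64 CPM in PD100 and 1.16 CPM in PD800 at 3 counts, although its mRNA is found in dividing cells generally. Of its 3′ words 94.4% also lie in the pseudogene Rps12-ps3, so that its reads may have been placed elsewhere or dropped. Rps27 had 37 and 27 UMIs (-0.95, -1.73 to -0.20), and all of its 3′ words lie in Rps27rt. Its ratio and its level are uncertain for that reason.

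By summed UMIs the subunits were not even. Large subunit genes held 8.83% of UMIs (8.79 to 8.87%) in PD100 and 8.34% (8.31 to 8.38%) in PD800, and small subunit genes 5.76% (5.73 to 5.80%) and 6.41% (6.38 to 6.44%). Large over small was thus 1.53 in PD100 and 1.30 in PD800, with a log2 ratio of these quotients of -0.23 (-0.25 to -0.22), and -0.31 (-0.32 to -0.30) without Rpl36a. Per cell its median was 1.52 in PD100 (5th to 95th percentile 1.20 to 2.004) and 1.31 in PD800 (1.05 to 1.59), so that the cells overlapped widely. The large subunit sums hold Rplp0 (9676 and 4678 CPM), Rpl3 (9625 and 4837 CPM) and Rpl15 (5426 and 2540 CPM), all lower in PD800. Of the 46 large subunit genes, 23 were higher and 23 lower in PD800. The quotient was not taken without Rplp0, Rpl3 and Rpl15, so whether the subunits differ apart from these genes was not tested. By genes the subunits differed less: the median log2 ratio was -0.01 over 46 large subunit genes (-0.25 to 0.34) and 0.19 over 30 small subunit genes (-0.11 to 0.44). Ratios at least 1.5-fold lower were found in 5 (10.9%) and 1 (3.33%) of them, against 36.6% of all tested genes. At least 1.5-fold higher were 11 (23.9%) and 6 (20%), against 15.2%.

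Parts of the ribosome did not move as units. In the stalk, Rplp0 was at -1.05, while Rplp1 and Rplp2, the acidic proteins that it anchors, had 966 and 1306 CPM (0.43, 0.35 to 0.52) and 800 and 1300 CPM (0.70, 0.61 to 0.79). Rpl12, at the stalk base, was even (-0.04, -0.14 to 0.07). Rpl5 and Rpl11, which travel with 5S rRNA and can bind Mdm2 to stabilise p53, had log2 ratios of -0.24 (-0.32 to -0.17) and 0.07 (-0.01 to 0.15), and Rpl5 was at 0.10 from the median of all tested genes. Rpsa, also known as the laminin receptor, had 1848 and 1503 CPM (-0.30, -0.37 to -0.23), or 0.04 from that median.

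Around the exit tunnel the 8 listed genes ran from -0.60 (Rpl19) to 1.93 (Rpl39), with a median of -0.22. The 3 proteins at the mRNA entry, Rps2, Rps3 and Rps9, were all lower in PD800, by log2 ratios from -0.54 to -0.21, none past 1.5-fold, with a median of 0.11 when measured from that of all tested genes. The 10 listed genes of Diamond-Blackfan anaemia had a median of 0.16, with 0 at least 1.5-fold lower and 2 at least 1.5-fold higher, among them Rpl35a (0.71). Of all tested genes, 36.6% were that much lower and 15.2% that much higher.

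The length of the coding sequence, which the choice of members did not use, ordered their ratios. Across 76 canonical members, coding length and log2 ratio had a Spearman rho of -0.75, and across all 84 members with a length of -0.72. It was -0.81 in the 46 large subunit genes and -0.66 in the 30 of the small subunit. These are correlations across genes that share 2 libraries and are not independent replicates. With the length of the whole transcript rho was -0.35 over the 76, with GC content -0.05 and with the summed UMIs -0.14. In the 36 canonical members with under 50% of their 3′ words in other genes, rho with coding length was -0.88. With the summed UMIs it was -0.46 in these 36.

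Sorted by coding length into parts of nearly equal size, the 25 shortest canonical members (75 to 405 nt) took 2.02% of UMIs in PD100 (1.999 to 2.04%) and 3.68% in PD800 (3.66 to 3.70%), a log2 ratio of the sums of 0.87. The 26 in the middle (405 to 576 nt) took 4.42% and 4.94% (0.16), and the 25 longest (582 to 1257 nt) 8.15% and 6.13% (-0.41). Among the 25 shortest, 15 were at least 1.5-fold higher (60%, against 15.2% of all tested genes) and 1 lower (4%, against 36.6%). Among the 25 longest, 0 were at least 1.5-fold higher and 5 lower (20%), the latter also below the share of all tested genes. Measured from the median of all tested genes, the median of the shortest was 1.01 and that of the longest 0.04. Short over long was 0.248 in PD100 and 0.600 in PD800, which differ by 1.28 (1.26 to 1.30) on the log2 scale and by 1.12 (1.10 to 1.14) when Rpl36a is left out. By library totals the short and the long members thus differed in opposite directions under the nearly even sum.

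Exceptions were few. Rps27 (252 nt) was low, on 37 and 27 UMIs, and Rpl35 (369 nt) had a log2 ratio of -0.25. Rps4x (789 nt), encoded on the X chromosome, was at 0.44, the highest of the 25 longest. Rpl10l (642 nt), which is not canonical, was far above members of its length. Rpl41, the shortest with 75 nt, was at 0.49, under the 12 members up to 300 nt as a whole, whose median was 0.91 (0.62 to 1.41).

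Genes outside the ribosome showed the same order less steeply. Over 6452 other tested genes rho with coding length was -0.13. Their median log2 ratio was 0.36 up to 300 nt (178 genes, 0.17 to 0.51), 0.09 from 300 to 400 nt (253 genes), -0.11 from 400 to 500 nt (310 genes), -0.37 from 600 to 900 nt (1046 genes) and -0.46 above 1500 nt (2371 genes). Members of up to 300, 300 to 400, 400 to 500 and 600 to 900 nt stood at 0.91 (12 genes), 0.59 (17), 0.16 (23) and -0.27 (21). Among 76 genes of mitochondrial ribosomal proteins, which are likewise small but made for another ribosome, rho was -0.35 and the median ratio -0.21. Up to 400 nt the intervals of the members' medians lay above those of the other genes (0.33 to 0.89 against -0.02 to 0.19 from 300 to 400 nt), and from 400 to 500 nt they overlapped. Beside other genes with at least 1000 UMIs the intervals overlapped below 400 nt too, at 0.28 to 0.66 for 66 such genes against 0.62 to 1.41 up to 300 nt and 0.09 to 0.41 for 76 against 0.33 to 0.89 from 300 to 400 nt. Between 500 and 600 nt the medians were -0.23 for 8 members and -0.19 for 382 others. Whether coding length itself or something that goes with it orders the ratios was not tested.

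**Figure D3:**
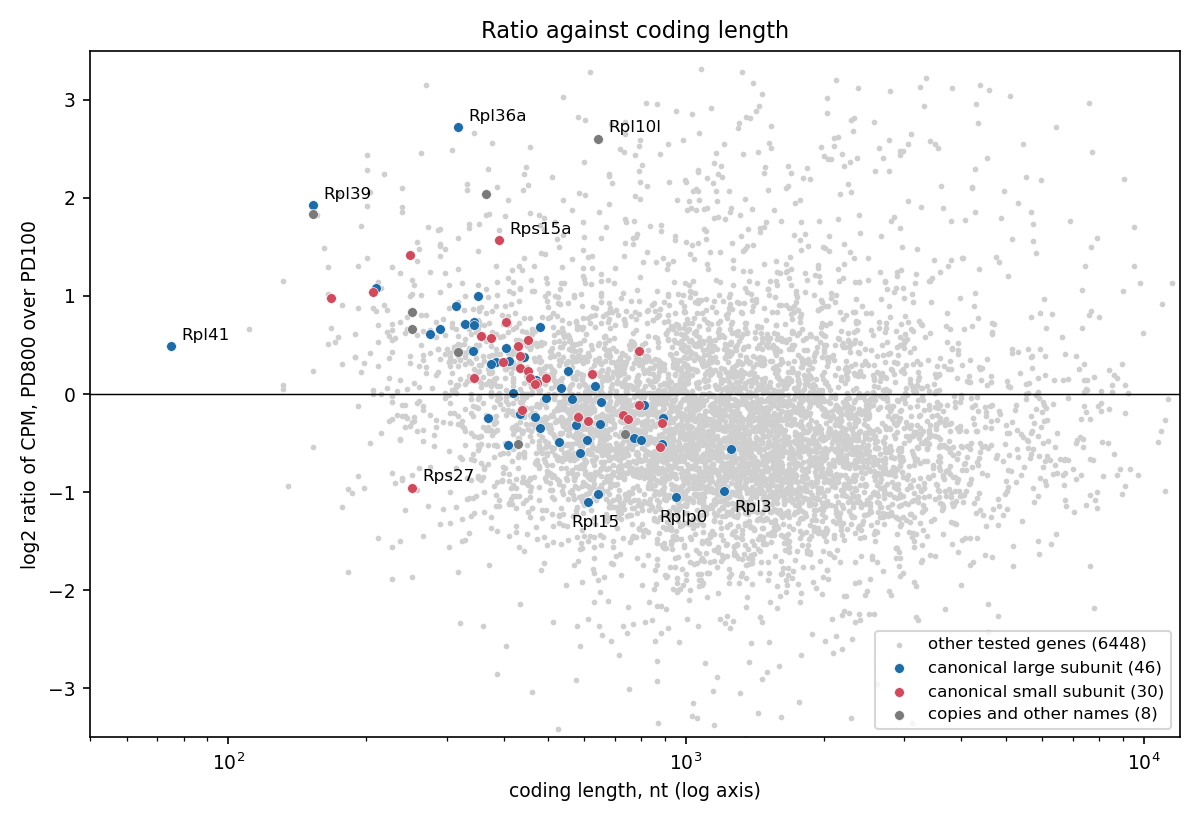
Log2 ratio of CPM, PD800 over PD100 (y), against coding length in nt (x, log axis), for 84 members coloured by subunit and 6448 other tested genes in grey; 39 grey points lie outside the axes and 4 genes with 0 UMIs in a library are not drawn. Members tend to fall from left to right, with Rpl36a and Rpl10l above the band and Rps27 below it. Rpl41, the shortest, is at 0.49 and Rpl39 at 1.93, and Rpl4, the longest, is at -0.55 and Rpl3 at -0.99.

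The shift between short and long members was spread over the cells of the libraries rather than held by a few. These are the same UMIs as in the sums above, split by cell, and cells of the same library are not replicates of a passage. Any difference between the libraries as a whole, technical or not, would appear in their cells alike. Of the UMIs of short and long members in a cell, the short ones were a median of 19.7% in PD100, with a lowest cell at 8.23% and a highest at 29.9%. In PD800 the median was 37.4%, the lowest 23.8% and the highest 53.1%. All 900 PD800 cells lay above the median of PD100, and 0 of 814 PD100 cells lay above the 5th percentile of PD800. The SD over cells was 3.63 and 4.24 percentage points, where counting alone gives 2.83 and 3.24.

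The share was also taken in cells sorted by depth, mitochondrial share and endoderm markers, all of them cells of the same 2 libraries. In cells of 1000 to under 1500 UMIs the short share was 19.5% in PD100 and 37.3% in PD800, and in cells of 3000 UMIs or more it was 20.2% and 37.9%. In cells with 2 to 5% mitochondrial UMIs it was 19.7% (85 cells) and 37.4% (581 cells), in those under 2% 19.9% (728 cells) and 34.2% (5 cells), and in those of 5% or more 20.8% (1 cell) and 37.8% (314 cells). Cells with 3 or more endoderm marker UMIs had 19.6% and 37.5%. In each of these sets PD800 was higher.

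**Figure D4:**
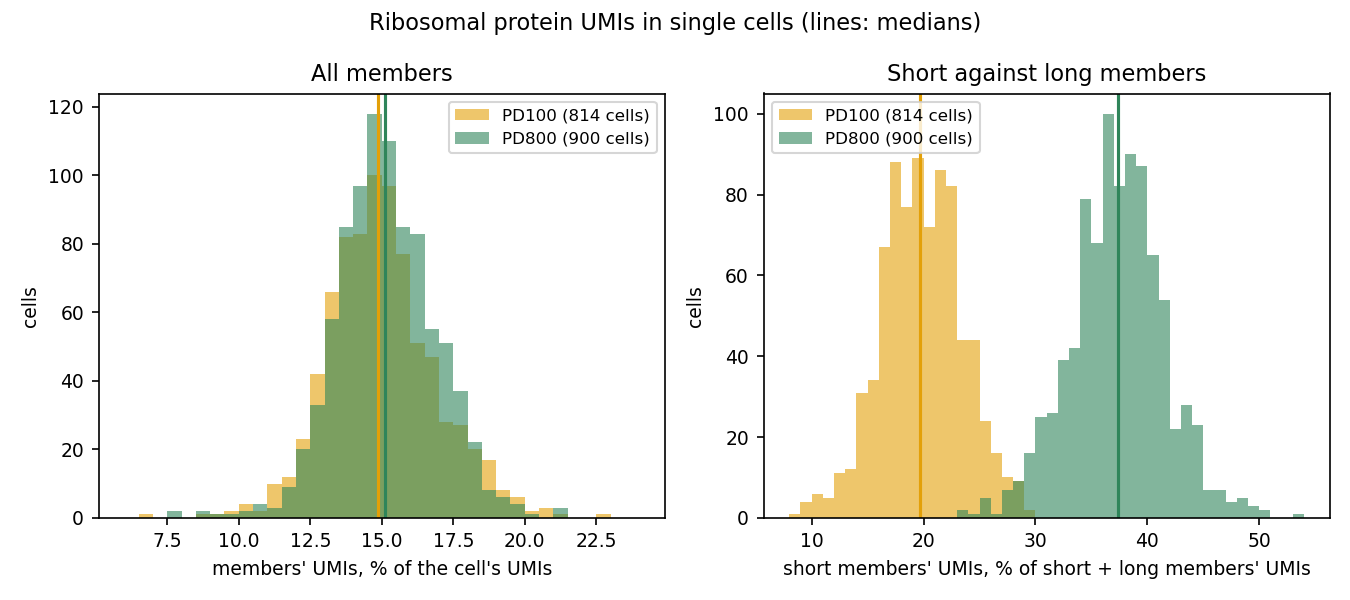
Left, members' UMIs as a percentage of all UMIs of a cell, not thinned, and right, short members' UMIs as a percentage of the UMIs of short and long members together, as counts of cells (y) in PD100 (814 cells, yellow) and PD800 (900 cells, green), with vertical lines at the medians. The left distributions overlap, with medians of 14.9% and 15.1%, and the right ones meet only at their tails, with medians of 19.7% and 37.4%.

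Members kept much of their order. By CPM, the 85 tested members had a Spearman rho of 0.88 between libraries. At the median gene, counts varied between thinned cells somewhat more than sampling gives. The variance over the mean had a median of 1.26 in PD100 (82 members, 1.22 to 1.31) and 1.18 in PD800 (1.15 to 1.22). In 1305 other genes the medians were 1.31 and 1.20. The highest members in PD100 were Rplp0 at 1.82 and Rpl3 at 1.69, which stood at 1.23 and 1.24 in PD800. Genes needed a mean of 0.1 UMI per thinned cell. Large and small subunit UMIs of thinned cells had a rho of 0.31 over 814 PD100 cells and 0.36 over 900 PD800 cells, which share their library and depth.

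Genes that work beside the ribosomal proteins are set against the shares of all tested genes at the 1.5-fold rule, 36.6% lower and 15.2% higher. Rack1 and Fau, ribosomal protein genes that the naming rule does not reach, were both at least 1.5-fold lower in PD800. Rack1, a signalling scaffold on the small subunit, had 3318 and 1666 CPM (-0.99, -1.05 to -0.94), and Fau, which encodes a ubiquitin-like protein fused to one of the small subunit, 79.4 and 45.3 CPM (-0.81, -1.17 to -0.45).

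Of 19 other TOP transcripts, among them Rack1, 10 were at least 1.5-fold lower (52.6%) and 1 higher (5.26%), with a median of -0.63 whose interval, -0.92 to 0.0015, held the -0.34 of all tested genes. Eef1a1, the elongation factor that brings tRNA, had 2678 and 2440 CPM (-0.13), Npm1, a nucleolar chaperone, 2439 and 2494 CPM (0.03), and Eef1g, another elongation factor subunit, 2786 and 1634 CPM (-0.77). The 30 ribosome assembly factors, which hold Npm1 too, had a median of -0.73, with 17 at least 1.5-fold lower (56.7%) and 2 higher (6.67%). Nhp2, of the pseudouridylating particles, had 3049 and 1582 CPM (-0.95), Ncl, the nucleolar protein nucleolin, 1005 and 671 CPM (-0.58), and Nop58, of the methylating particles, 598 and 588 CPM (-0.02). The interval of this median, -1.01 to -0.44, lay below -0.34.

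RNA polymerase I, which makes the large rRNA precursor, had 19 listed subunits and factors with a median of -0.24, 6 at least 1.5-fold lower (31.6%) and 4 higher (21.1%), shares near those of all tested genes. Polr1d, a subunit shared with polymerase III, had 377 and 567 CPM (0.59), Polr1c, which is shared likewise, 290 and 135 CPM (-1.10), and Polr2e, found in all polymerases, 636 and 360 CPM (-0.82). Polr2k, also found in all of them, had 41.1 and 169 CPM (2.04). Of 14 regulators, 10 were at least 1.5-fold lower (71.4%) and 0 higher. Their median was -0.90, and its interval, -1.15 to -0.26, held the -0.34 of all tested genes. Eif4ebp1, a translation repressor that mTOR switches off, had 1794 and 1004 CPM (-0.84), and Trp53, which encodes p53, 309 and 158 CPM (-0.97). Mdm2, the ligase of p53, had 168 and 140 CPM (-0.26), and Mycn, a growth-promoting transcription factor, 215 and 96.9 CPM (-1.15). The 2-cell state markers, which mark a rare state of these cells, held 76 UMIs in PD100 and 1 in PD800.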

How the data were processed

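Cells were encapsulated with an inDrops device, and the deposited tables hold raw UMI counts per barcode and gene. The authors obtained them through the inDrops pipeline, with a transcriptome of mm10 (GRCm38) as reference. The submitters' processing notes also name Scanpy. The deposited counts are not normalised. The study's own cell filter was applied (at least 1000 UMIs, at most 20% mitochondrial), which left more cells than the study states. Doublets were not called. Counts were summed per library, divided by its total and given as CPM. With 1 library per group there was no test. Counting intervals (95%) were exact Poisson for CPM, exact binomial for shares and exact conditional for log2 ratios. For quotients of sums a normal interval on the log scale replaced the exact one that was planned. Intervals of medians are order-statistic ones over genes. Tested genes had at least 50 UMIs over both libraries. A count of 0 was set to a floor of 3 counts where a ratio was needed.

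Coding length (84 members), 3′ words (50 bases in the last 300 of the transcript) and gene coordinates were from GENCODE for GRCm38. For each gene 1 transcript was taken, by principal rank, then support level, then greatest length. Where this was a long form, its length and 3′ words may not be those of the mRNA that was counted. This limits the results by transcript length and by shared 3′ words. Promoters were from RefSeq. Named members were the 8 with most UMIs, the 5 highest and 5 lowest by the interval end nearer the median, Rplp0 to Rplp2, Rpl5, Rpl11, Rpsa, each copy, and members with 0 UMIs; from other lists, up to 4 genes with most UMIs were taken, plus genes a sentence needed; further members were named after their values were seen. Results of a few single genes are not reported here. Members, lists and rules were chosen with earlier results of these data known, and coding length was examined after seeing the data. Intervals covered the known ratio in 95.9% of 6984 genes simulated for PD800 against PD100. The simulated counts were drawn from the Poisson model that the intervals assume. The result therefore checks the calculation only, and not the spread of real counts between cells or cultures. Alternatives in cell filter, total, gene minimum and members are given at the end. Python 3.11.15, NumPy 2.4.6, SciPy 1.17.1, pandas 2.3.3 and matplotlib 3.10.9 were used.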

Additional observations from a re-analysis of the deposited data

Results flagged for a closer look

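Barcodes that the cell filter left out, 477 in PD100 and 766 in PD800, also held members' UMIs, of which only those of Rpl36a are given above. Members were 15.8% of their UMIs in PD100 and 15.5% in PD800, close to the cells. Of 83 members with at least 50 UMIs in these barcodes, 76 had the same sign of the log2 ratio as in the cells, and the short share was 19.98% in PD100 and 37.5% in PD800. The 16 columns named as ribosomal protein pseudogenes, which were not members, held 1068 UMIs in PD100 and 922 in PD800, or 0.0585% and 0.0357% of all UMIs.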

How the results depend on the processing

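No paired analysis was possible because each group has 1 library. The log2 ratio of the summed share (0.028) was small enough to move with most settings: it was 0.044 at a minimum of 2000 UMIs per cell, 0.036 at up to 5% mitochondrial UMIs, 0.079 with mitochondrial UMIs out of the total, 0.37 with median-of-ratios size factors, 0.015 with cells weighed equally, 0.0081 without cells with 3 or more endoderm marker UMIs, 0.017 with thinned cells and, reversed, -0.012 without Rpl36a. With size factors the members' median was 0.50, with 0 members at least 2-fold lower and 37 at least 1.5-fold higher. The count at least 2-fold lower, 3, was 1 with mitochondrial UMIs out of the total and 5 with cells weighed equally. Large over small subunit was -0.31 without Rpl36a, and it was not taken without Rplp0, Rpl3 and Rpl15. Short over long members, an outcome added after seeing the data, was 1.12 without Rpl36a and 1.25 with the 13 short and 13 long members whose 3′ words were mostly their own. Of 243 values of 27 named members under 9 settings, 207 stayed within the counting interval, 36 moved outside it and 0 of those past 1.5-fold changed sign. With size factors Rps6 (0.09), Rpl5 (0.10) and Rpsa (0.04) turned from lower to higher, all under 1.5-fold. Depth limits Rpl10l, Rpl39l, Rps27 and Rpl3l most.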
